A study of Mus musculus with 6 samples.

Results

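The genes described here belong to the response to hypertonic stress that the transcription factor NFAT5 controls and to the accumulation of compatible osmolytes: *Nfat5*, *Slc6a12*, *Slc5a3*, *Slc6a6*, *Akr1b3* and *Mrps6*. They were found by their symbols in the table of the authors and were chosen by what is known of the pathway together with their fold changes in the NaCl comparison, so their values in that comparison are given as a description without a test. They are 6 of 15903 genes tested and of 57010 genes annotated, and all 6 passed the filter on low counts, a total of at least 10 counts over the libraries. *Mrps6* encodes a protein of the small subunit of the mitochondrial ribosome and moves no osmolyte; it lies at the same locus as *Slc5a3*. The RNA came from BMDMs, macrophages grown from bone marrow, of 3 mice of the *Cx3cr1*GFP line on the C57BL/6J background, in which a GFP sequence replaces part of the *Cx3cr1* gene in every sample. All cultures received 10 ng/ml M-CSF, the growth factor that drives macrophage differentiation, and 10% FCS, and adherent cells were detached with 2 mM EDTA after 7 days of culture and the treatment. From each mouse, cells were either left unstimulated (control, n = 3) or given 62 mM NaCl on top of the medium for 24 h (NaCl, n = 3). No library with another osmolyte at the same osmolarity was analysed here, so sodium chloride and osmolarity cannot be told apart, and in bulk RNA fewer cells of a kind and less RNA per cell cannot be told apart either. All values are from 1 time point.

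Cells in hypertonic medium lose water and at first take up inorganic ions. They then replace these ions with compatible osmolytes, small organic molecules such as betaine, myo-inositol, taurine and sorbitol that do not disturb proteins at high concentration. NFAT5, also called TonEBP, is the member of the NFAT family that drives this exchange in the kidney medulla and in cultured cells. It binds a DNA element called TonE in the control regions of osmolyte transporters and of aldose reductase, and it has been studied in macrophages exposed to high salt.

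The regions in front of the transporter genes that differed most are shown here because they can be searched for that element. RefSeq promoter windows, from 250 bases before a gene's start to 50 bases after it, were searched on both strands for TonE and for its core TGGAAA (every TonE match holds the core). A TonE match is a description of letters and not evidence of binding. *Slc6a12* had a match in 1 of its 5 windows, 75 to 65 bases before that window's start. *Slc6a13*, its neighbour on chromosome 6, had a match in 1 of 3 windows, on the opposite strand 77 to 67 bases before that window's start. Both windows are printed below because they hold the match. The *Slc6a12* window is the furthest upstream of its 5, and the *Slc6a13* window the furthest downstream of its 3. *Nfat5*, *Slc5a3* and *Mrps6* had 1 window each, with neither TonE nor the core. Sequence outside the windows was not searched, so the lack of a match says nothing of elements elsewhere. Over the whole table, 4.96% of 32851 windows held TonE and 21.4% held the core; by gene, 5.74% of 27025 genes had TonE in at least 1 window and 23.9% had the core. The 250 bases before the start follow for *Slc6a12* (GRCm38.p6, chr6:121342324-121342573, plus strand), *Slc6a13* (chr6:121303389-121303638, plus strand) and *Slc5a3* (chr16:92058072-92058321, plus strand), 5′ to 3′, with the TonE match in capitals.
Slc6a12: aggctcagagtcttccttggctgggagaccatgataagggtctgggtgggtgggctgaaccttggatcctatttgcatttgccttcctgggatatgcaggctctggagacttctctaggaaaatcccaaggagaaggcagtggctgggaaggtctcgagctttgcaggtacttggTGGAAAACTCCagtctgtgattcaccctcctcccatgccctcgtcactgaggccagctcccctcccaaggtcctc
Slc6a13: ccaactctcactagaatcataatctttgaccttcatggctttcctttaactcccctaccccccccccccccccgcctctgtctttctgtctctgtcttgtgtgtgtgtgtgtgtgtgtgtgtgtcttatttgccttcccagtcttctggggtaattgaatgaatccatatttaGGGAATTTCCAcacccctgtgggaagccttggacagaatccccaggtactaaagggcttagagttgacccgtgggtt
Slc5a3: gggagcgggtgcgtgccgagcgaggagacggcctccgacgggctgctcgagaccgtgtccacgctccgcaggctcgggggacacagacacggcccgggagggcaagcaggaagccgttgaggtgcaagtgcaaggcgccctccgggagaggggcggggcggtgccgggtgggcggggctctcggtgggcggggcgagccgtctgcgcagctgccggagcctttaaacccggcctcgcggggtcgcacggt
The RefSeq starts of *Slc5a3* and *Mrps6* lie 14 bases apart on the same strand, and their 300-base windows share 286 bases, so the *Slc5a3* sequence also shows most of the *Mrps6* window. In the GENCODE M21 annotation the whole span of *Slc5a3* lies inside that of *Mrps6*, and the genes share 159 exonic bases, the first exon of *Slc5a3*. *Slc6a12* and *Slc6a13* lie on the same strand with 5342 bases and no protein-coding gene between them.

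The osmolyte transporters for betaine and myo-inositol showed the 2 largest differences among the 6 genes, *Mrps6* the next, aldose reductase a smaller and uneven one, and *Nfat5* and the taurine transporter *Slc6a6* almost none. Values below are CPM, counts scaled to a common library size with TMM factors, which compare samples within a gene but not genes with each other. The plot of CPM by mouse shows every value.

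**Figure D1:**
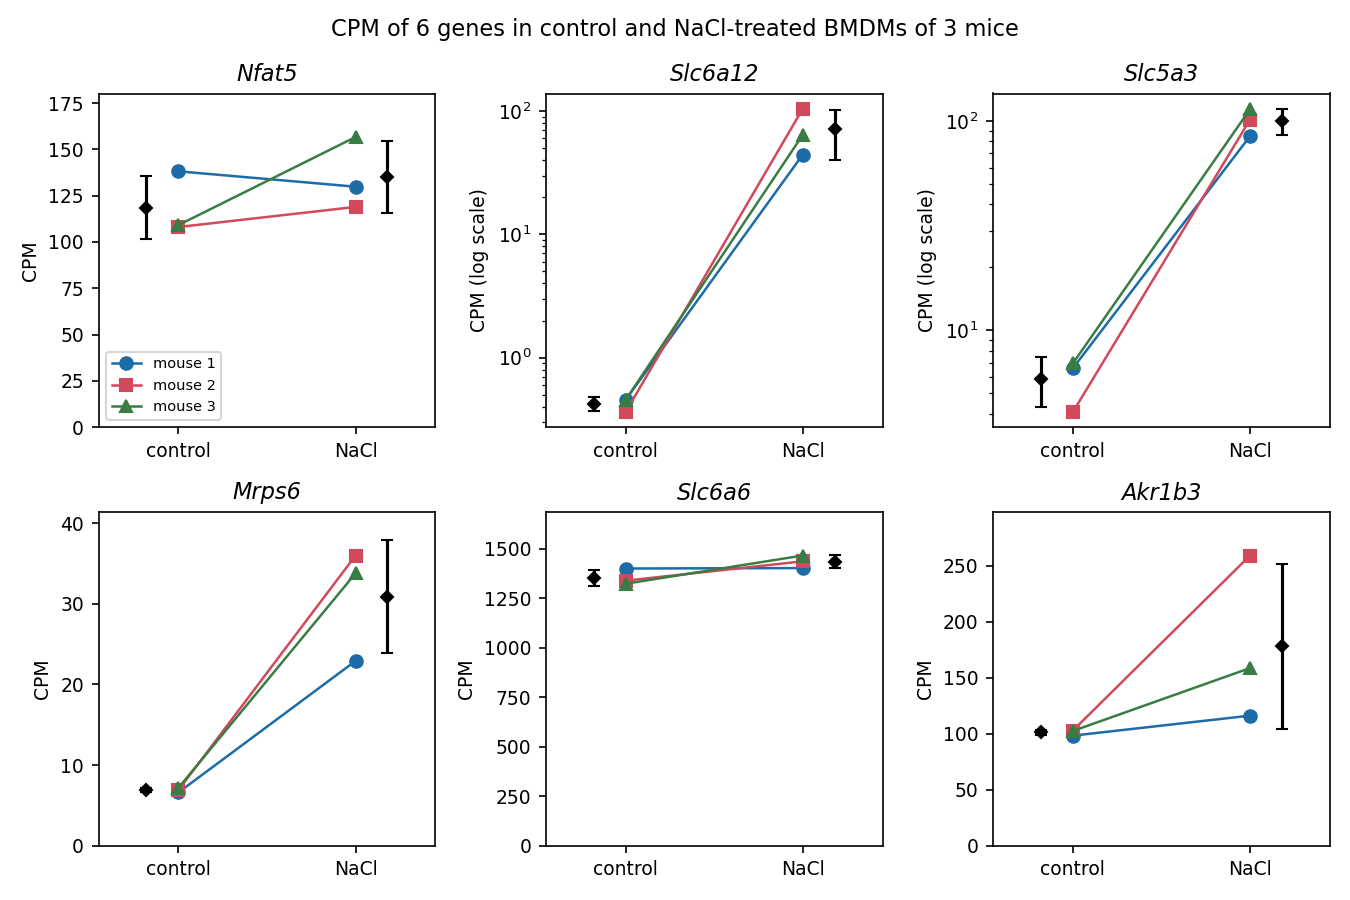
CPM of the 6 genes (y axis, logarithmic for *Slc6a12* and *Slc5a3*, linear from 0 for the others) in control and NaCl samples (x axis), with a coloured line for each of the 3 mice and, beside each group, a black diamond and bar for the mean ± SD (n = 3). NaCl lies far above control for *Slc6a12*, *Slc5a3* and *Mrps6*, the NaCl values of *Akr1b3* spread widely, those of *Slc6a6* lie just above control, and those of *Nfat5* overlap with control.

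*Nfat5* (chromosome 8), the regulator of the response, had 138, 108 and 109 CPM in the control samples of mice 1, 2 and 3 and 130, 119 and 157 CPM in their NaCl samples. The groups overlapped, and the level was lower with NaCl in mouse 1 and higher in mice 2 and 3. The group means were 118 ± 17.1 and 135 ± 19.4 CPM (SD, n = 3 each), and the fitted log2 fold change was 0.19. Within mice, the log2 ratio of NaCl to control was -0.09, 0.14 and 0.52. Per length of exon, *Nfat5* mRNA stood above 62.2% of 15470 genes in control cells and above 64.9% in NaCl. The protein's amount, its phosphorylation and its movement to the nucleus, by which NFAT5 is also regulated, were not measured in these libraries.

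*Slc6a12* encodes BGT1, the sodium- and chloride-coupled transporter of betaine and GABA. Its control libraries held 4, 4 and 9 counts, and its NaCl libraries 397, 1155 and 268 counts, in mice 1, 2 and 3. This gave 0.455, 0.362 and 0.454 CPM against 44.4, 104.7 and 64.2 CPM, without overlap. The means were 0.424 ± 0.0532 and 71.1 ± 30.8 CPM (SD, n = 3 each), a ratio of means of 168. Within mice 1, 2 and 3 the level was 97.5-fold, 289-fold and 141-fold higher with NaCl. The control level rests on 17 counts in all, with an exact 95% Poisson interval of 9.90 to 27.2 counts, so the size of the fold is less certain than its direction; intervals cover counting error only. Per length of exon, *Slc6a12* stood at rank 13986 of 15470 genes in control cells and at rank 1976 in NaCl.

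*Slc5a3* encodes SMIT1, the sodium-coupled transporter of myo-inositol. It had 58, 45 and 138 counts in control and 758, 1120 and 475 counts in NaCl. In CPM these were 6.59, 4.08 and 6.96 in control and 84.7, 101.5 and 113.8 in NaCl, so the lowest NaCl sample was far above the highest control. The means were 5.88 ± 1.57 and 100.01 ± 14.6 CPM (SD, n = 3 each), a ratio of 17.0, and the fitted log2 fold change was 4.07. Mouse 2, which had the lowest control level, had the highest ratio, 24.9-fold, against 12.8-fold in mouse 1 and 16.3-fold in mouse 3. Unlike *Slc6a12*, *Slc5a3* was measured in control cells on 241 counts in all, and its NaCl values spread less, with a coefficient of variation of 14.6% against 43.3%.

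*Slc6a6* encodes TauT, the taurine transporter. Its values were 1400, 1339 and 1323 CPM in control and 1403, 1437 and 1466 CPM in NaCl, and per length of exon it lay above 98.6% of 15470 genes in control cells. Each NaCl sample was above each control sample, but in mouse 1 the NaCl and control samples were nearly equal, with a ratio of 1.00. The means were 1354 ± 40.7 and 1435 ± 31.7 CPM (SD, n = 3 each), a ratio of 1.06. The log2 ratio within mice was 0.00, 0.10 and 0.15.

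*Akr1b3* encodes aldose reductase, which makes sorbitol from glucose. Its control values were tight, at 98.2, 103 and 102 CPM, and its NaCl values were not, at 116, 259 and 159 CPM. The groups did not overlap, and mouse 2 gave by far the highest NaCl value. The means were 101 ± 2.53 and 178 ± 73.4 CPM (SD, n = 3 each), with a coefficient of variation of 2.50% in control and 41.3% in NaCl. The fitted log2 fold change was 0.82, and it was 0.44 without NaCl replicate 2 and 1.05 without NaCl replicate 1. Of the 75-base stretches of its exons, 12.1% also occur in other annotated genes. Those that share the most, *Gm38056*, *Gm6644*, *Gm6736* and *Gm12138*, were not among the genes tested. Any others were not looked up, and how many reads the authors' counting lost to such genes is not known.

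The control samples of mice 1, 2 and 3 held 6.59, 6.88 and 7.16 CPM of *Mrps6*, and the NaCl samples 22.9, 36.0 and 33.8 CPM. The control values lay close together and the groups did not overlap. The means were 6.88 ± 0.284 and 30.9 ± 7.0 CPM (SD, n = 3 each), a ratio of 4.49, with 3.47-fold, 5.23-fold and 4.72-fold within mice 1, 2 and 3. Reads that fall on the 159 shared bases alone cannot be assigned between *Mrps6* and *Slc5a3*; 15.9% of the 75-base stretches of *Mrps6* exons occur in another annotated gene, *Slc5a3* or *Gm49711*, against 0.779% of those of *Slc5a3*.

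Across the 6 genes, 5 had every NaCl sample above every control sample (8.92% of all genes tested did), and 3, *Slc6a12*, *Slc5a3* and *Mrps6*, were past the adjusted threshold of 0.05 in the edgeR fit as higher (0.478% of all genes). With the mouse as a replicate block, *Akr1b3* was past it too, which made 4 of 6 (4.6% of all genes were higher in that fit). These are the counts of the comparison that chose the genes, and nothing is read from them. The ratio was lowest in mouse 1 for 6 of 6 and highest in mouse 2 for 4, *Slc6a12*, *Slc5a3*, *Mrps6* and *Akr1b3*. For *Nfat5* and *Slc6a6* it was highest in mouse 3. The share of all genes tested with these orders of mice was not counted, so the orders are not read as a trait of the 6 genes. Log2 ratios over all genes tested were taken from log2 CPM with a prior count of 2, unlike those of the 6 genes. Their median absolute value was also lowest in mouse 1, 0.22, and highest in mouse 2, 0.37, with 0.30 in mouse 3. The median signed ratio lay near 0 in all 3 mice, at -0.01, 0.00 and -0.04.

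**Figure D2:**
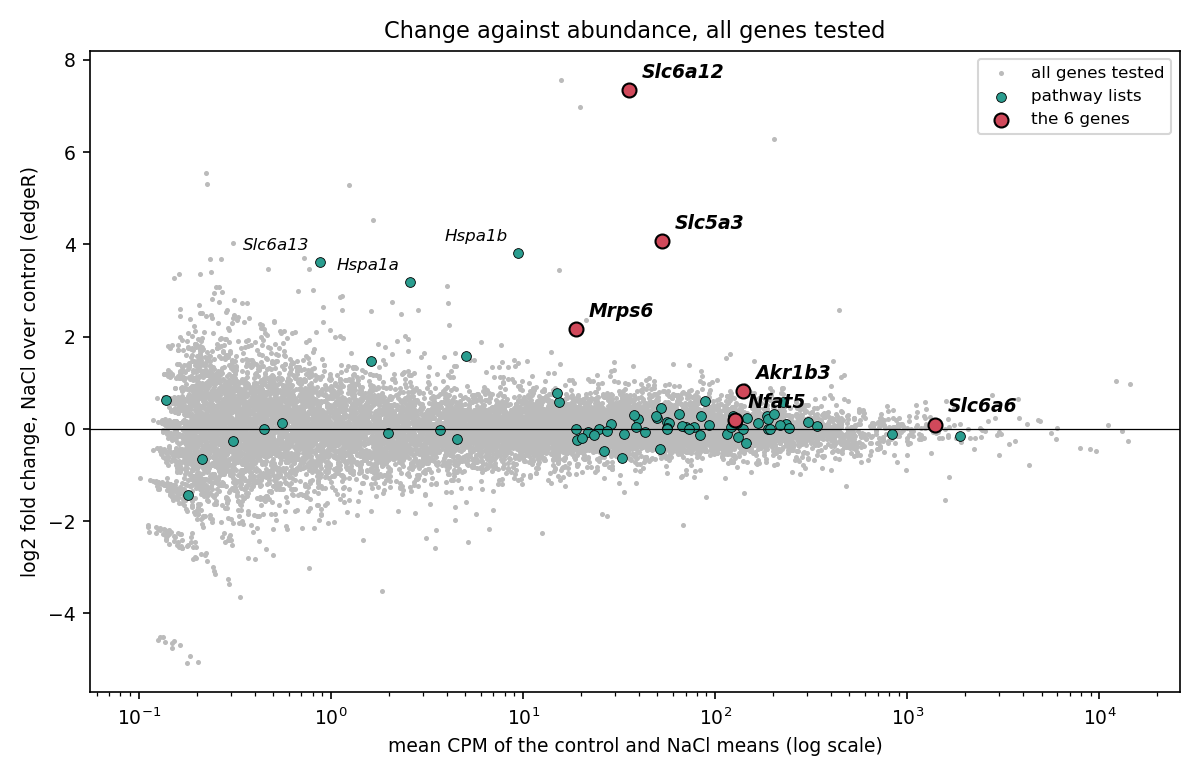
Fitted log2 fold change of NaCl over control (y axis) against the mean CPM of both groups (x axis, logarithmic) for the 15903 genes tested (grey), the 70 tested genes of the pathway lists (green) and the 6 genes (red). *Slc6a12*, *Slc5a3* and *Mrps6* stand at 7.34, 4.07 and 2.16 and most pathway genes near 0, with *Slc6a13*, *Hspa1a* and *Hspa1b* labelled as the pathway genes past the threshold.

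*Mrps6* was set beside the other mitochondrial ribosomal protein genes, which encode the same machine. None of these 76 genes passed the threshold in the edgeR fit in either direction, with or without the replicate block, nor with DESeq2, and 1 had an unadjusted p under 0.05. Over all genes tested the shares were 0.478% higher and 0.176% lower, 4.6% and 4.3% with the block, and 12.6% with an unadjusted p under 0.05. Their log2 fold changes ran from -0.41 to 0.37 with a median of 0.01, as against -0.01 over all genes tested. Within mice 1, 2 and 3 their highest log2 ratios were 0.50, 0.78 and 0.46, whereas *Mrps6* had 1.80, 2.39 and 2.24.

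**Figure D3:**
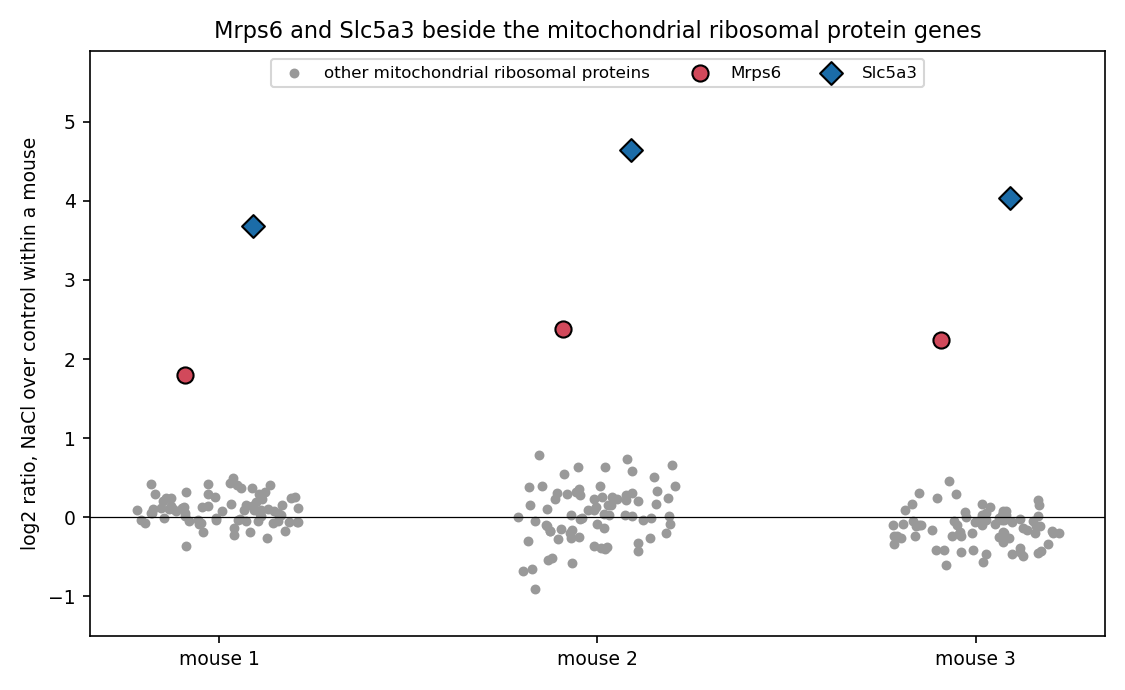
Log2 ratio of NaCl to control CPM (y axis) within each of the 3 mice (x axis, points spread sideways at random for the 76 genes) for the other mitochondrial ribosomal protein genes (grey), *Mrps6* (red circles) and *Slc5a3* (blue diamonds). *Mrps6* lies above all others of its family in each mouse and below *Slc5a3*.

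*Mrps6* and *Slc5a3* can be compared with each other only per length. FPKM, CPM divided by the kilobases of exon in GENCODE M21, was used for this. In control, *Mrps6* exceeded *Slc5a3* by 7.12-fold, 12.0-fold and 7.33-fold in mice 1, 2 and 3, and in NaCl by 1.93-fold, 2.52-fold and 2.11-fold. The increase in level was larger for *Mrps6*, by 10.6, 19.0 and 17.4 FPKM, than for *Slc5a3*, by 7.16, 8.93 and 9.79 FPKM, although the ratio of NaCl to control was larger for *Slc5a3*. Of the other 9 tested genes around them on chromosome 16, none passed the threshold (edgeR; 1 had an unadjusted p under 0.05; DESeq2 called 0), and their median log2 fold change was -0.05. *Son*, an RNA splicing factor and the most abundant of them, was at 563 ± 10.5 and 546 ± 48.9 CPM (SD, n = 3 each). With the replicate block *Donson*, a replication gene, passed (log2 fold change 0.52, adjusted p = 0.0395), but not in DESeq2 with the block (adjusted p = 0.17), and it was past the threshold in 1 of 17 alternatives.

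Per length, *Slc6a6* stood far above the other genes in control cells, at 160 ± 4.81 FPKM (SD, n = 3). It was followed by *Akr1b3* at 12.1 ± 0.302, *Nfat5* at 6.44 ± 0.929, *Mrps6* at 4.49 ± 0.185, *Slc5a3* at 0.539 ± 0.144 and *Slc6a12* at 0.139 ± 0.0174 FPKM. No 2 neighbours in this order overlapped in their control samples. In NaCl the order by mean was *Slc6a6* with 170 ± 3.75, *Slc6a12* with 23.3 ± 10.1, *Akr1b3* with 21.2 ± 8.76, *Mrps6* with 20.2 ± 4.57, *Slc5a3* with 9.16 ± 1.34 and *Nfat5* with 7.35 ± 1.06 FPKM. There, the samples of *Slc6a12*, *Akr1b3* and *Mrps6* overlapped, and so did those of *Slc5a3* and *Nfat5*. Within every mouse, however, *Slc6a12* was above *Akr1b3* and *Slc5a3* above *Nfat5* at this length. With the longest transcript as the length, *Akr1b3* came to 20.1 FPKM in control, a change of over 1.5 times, and the order of the means in NaCl changed to *Slc6a6* 232, *Akr1b3* 35.4, *Mrps6* 27.7, *Slc6a12* 26.9, *Nfat5* 10.1 and *Slc5a3* 9.16 FPKM.

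**Figure D4:**
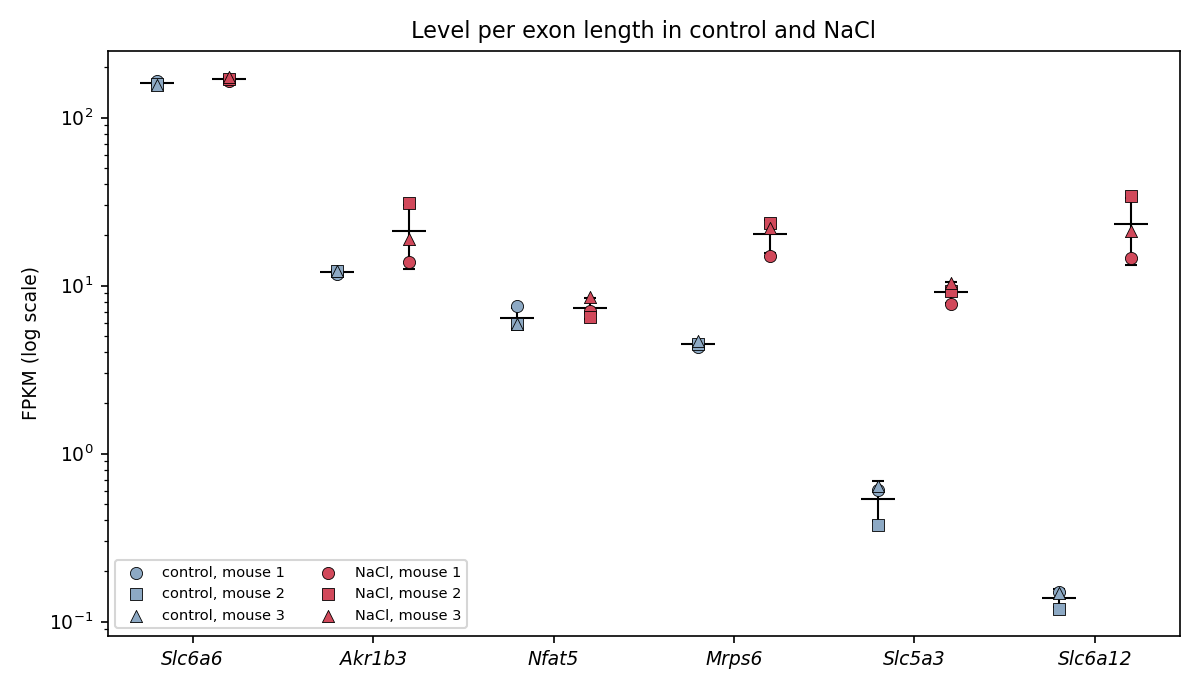
FPKM (y axis, logarithmic) of the 6 genes (x axis, in the control order) in control (blue) and NaCl (red) samples, a symbol for each mouse and bars for the mean ± SD (n = 3 per group). *Slc6a6* is highest in both groups, and *Slc6a12* is lowest in control and near *Akr1b3* and *Mrps6* in NaCl.

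The 3 transporters together came to between 157 and 166 FPKM in control samples and between 188 and 214 FPKM in NaCl samples. *Slc6a6* held 99.5% to 99.7% of this sum in control and 79.6% to 88.1% in NaCl. The share of *Slc6a12* was 0.0748% to 0.0946% in control and 7.73% to 16.1% in NaCl, and that of *Slc5a3* 0.235% to 0.406% and 4.13% to 5.09%. These are shares of mRNA per length and not of transport.

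Other genes of the pathway were taken from lists by role, 70 genes tested of 89 listed, none of them one of the 6. The lists were chosen with earlier results of these data known, so their shares are a description only. Of these 70, 3 were higher past the threshold (edgeR quasi-likelihood test, adjusted over all genes tested) and 0 lower, against 0.478% and 0.176% of all genes tested, and 13 had an unadjusted p under 0.05, against 12.6% of all genes. Their median log2 fold change was 0.04 and that of all genes tested -0.01. With the replicate block 10 were higher and 3 lower (4.6% and 4.3% of all genes), and DESeq2 called 5 higher and 0 lower (1.54% and 0.975%).

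Among 9 other osmolyte and amino acid transporters tested, *Slc6a13* rose. It encodes GAT2, a GABA and taurine transporter of the same family as *Slc6a12*. Mice 1, 2 and 3 gave 1, 0 and 4 counts in control and 17, 15 and 7 counts in NaCl, without overlap. The means were 0.105 ± 0.101 and 1.65 ± 0.271 CPM (SD, n = 3 each). The log2 fold change was 3.61 ± 0.62 (approximate SE, edgeR, adjusted p = 0.0417, with the replicate block adjusted p = 0.000502), higher in 3 of 3 mice. Each SE of a log2 fold change here is approximate: the absolute change divided by the square root of the test's F statistic. It is not a standard error given by the fit. The call was lost without any single sample: the adjusted p was 0.0646, 0.197 and 0.141 without control replicates 1, 2 and 3 and 0.0596, 0.100 and 0.160 without NaCl replicates 1, 2 and 3. *Slc6a13* shares no 75-base stretch of exon with *Slc6a12*. On the other side of *Slc6a12*, the next protein-coding gene tested was 942944 bases away. This gene, *M6pr*, a receptor that sorts lysosomal enzymes, was at 381 ± 30.0 and 388 ± 29.9 CPM (adjusted p = 0.963). With the replicate block, *Slc38a2*, the glutamine and alanine transporter SNAT2, also passed (log2 fold change 0.59, adjusted p = 0.00257; without the block 0.58 ± 0.17, adjusted p = 0.183), and *Slc16a6* fell (log2 fold change -0.63, adjusted p = 0.0024; without the block adjusted p = 0.182). *Slc5a11*, the second myo-inositol transporter SMIT2, stayed under 1 CPM, at 0.453 ± 0.176 and 0.44 ± 0.198 CPM.

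Enzymes that make or remove the same osmolytes did not pass the threshold in the fit without the block. None of 7 polyol pathway genes tested did with edgeR, with or without the block, or with DESeq2, and 0 had an unadjusted p under 0.05. The relatives of *Akr1b3* were at 89.4 ± 11.8 and 95.1 ± 9.68 CPM for *Akr1b8* and at 1983 ± 77.4 and 1793 ± 137 CPM for *Akr1a1*, the aldehyde reductase. *Sord*, which turns sorbitol into fructose, was at 53.0 ± 8.92 and 58.5 ± 14.6 CPM. Of 7 genes of inositol metabolism 0 passed, 0 had an unadjusted p under 0.05 and DESeq2 called 0. *Isyna1*, which makes the inositol backbone from glucose phosphate, was at 76.2 ± 14.8 and 91.6 ± 28.7 CPM. Of 4 taurine synthesis genes 0 passed by either tool, also 0 unadjusted. Their median log2 fold change was -0.39, with *Cdo1* and *Cth* under 1 CPM in both groups.
Among 12 genes of betaine and glycerophosphocholine metabolism, 0 passed with edgeR or DESeq2 and 2 had an unadjusted p under 0.05. With the block *Pnpla6*, a phospholipase that releases glycerophosphocholine, was higher (log2 fold change 0.44, adjusted p = 0.0401), and *Gpcpd1*, which breaks glycerophosphocholine down, was lower (-0.46, adjusted p = 0.0229). *Aldh7a1*, which oxidizes betaine aldehyde to betaine, was lower as well (-0.50, adjusted p = 0.02). None of the 3 passed in DESeq2 with the block (adjusted p = 0.119, 0.0879 and 0.0981), and each was past the threshold in 1 of 17 alternatives.

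Among 21 tested relatives and regulators of *Nfat5*, none passed without the block (edgeR; 1 had an unadjusted p under 0.05; DESeq2 called 0), and their median log2 fold change was 0.04. The calcium-dependent family members *Nfatc1*, at 57.6 ± 9.20 and 72.4 ± 9.90 CPM, *Nfatc2* and *Nfatc3* did not pass. *Mapk14*, the p38 kinase upstream of NFAT5, was at 175 ± 28.0 and 201 ± 29.8 CPM. *Ddx5*, an RNA helicase and the most abundant of the list, was at 865 ± 15.6 and 796 ± 93.9 CPM. With the block, *Nfatc2ip*, an NFAT-interacting protein, was higher (log2 fold change 0.62, adjusted p = 0.0103), but DESeq2 with the block gave an adjusted p of 0.0627, and 1 of 17 alternatives had it past the threshold. The next expressed genes beside *Nfat5* on chromosome 8, *Cyb5b* and *Nqo1*, did not pass either (adjusted p = 0.934 and 0.883).

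Of 10 tested genes reported elsewhere as NFAT5 targets, 2 rose (0.478% of all genes tested did), and 6 were higher with the block (4.6% of all genes). The list median was 0.69 on the log2 scale and that of all genes -0.01. This list was chosen with earlier results of these data known, so its shares and median are a description only. *Hspa1b*, an inducible heat shock protein of the HSP70 family, had 14, 11 and 24 counts in control and 96, 262 and 76 counts in NaCl (log2 fold change 3.81 ± 0.34 (approximate SE), edgeR adjusted p = 0.00191). As with *Slc6a12*, mouse 2 gave the highest NaCl value. Its near-identical copy *Hspa1a* had 5, 6 and 9 counts in control and 30, 73 and 16 in NaCl (3.17 ± 0.39, adjusted p = 0.00997). The genes share 61.7% of the 75-base stretches of *Hspa1a* and 55.8% of those of *Hspa1b* with each other or with other genes. How many reads of each the authors' counting lost to this sharing is not known, so both levels are uncertain. The call for *Hspa1a* was lost without control replicate 2, control replicate 3 or NaCl replicate 3 (adjusted p = 0.0905, 0.0853 and 0.0575). With the block *S100a4*, *Tnf*, *Vegfc* and *Ptgs2* were higher too. DESeq2 called *S100a4* and *Ptgs2* without the block, and with it also *Tnf* (adjusted p = 0.0199) but not *Vegfc* (0.0987). *S100a4*, a calcium-binding protein, was at 70.0 ± 5.12 and 106 ± 10.7 CPM without overlap (edgeR adjusted p = 0.084, with the block 0.00152). *Ptgs2*, the inducible cyclooxygenase, was at 2.33 ± 0.77 and 7.74 ± 5.57 CPM (adjusted p = 0.2, with the block 9.77e-05). *Tnf* and *Vegfc*, a cytokine and a lymphatic growth factor, had adjusted p of 0.344 and 0.206 without the block and 0.0028 and 0.0079 with it.

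The genes whose pattern over the 6 samples was most like each of the 6 were found by Euclidean distance between log2 CPM centred on each gene's mean, over 9918 genes with a mean of at least 50 counts. A distance of 0 means the same pattern, and likeness over 6 samples says nothing of shared control. Nearest to *Slc6a12* were *Ndrg2* (distance 1.02), *Fxyd2* (1.11), a modulator of the sodium pump, and *Slco4a1* (1.75), an organic anion transporter. *Ndrg2* went from 0.191 ± 0.146 to 31.4 ± 13.4 CPM (control and NaCl means, SD, n = 3 each) and *Fxyd2* from 0.326 ± 0.112 to 39.2 ± 25.7 CPM. Nearest to *Slc5a3* were *Hspa1b* (0.97), *Ifitm6* (1.75) and *Plcb4* (2.52), and nearest to *Mrps6* were *Shb* (0.71), *Olfm1* (0.72) and *Plcb4* (0.80). The 6 genes were left out of the genes compared, so *Slc5a3* and *Mrps6* could not be listed for each other. Nearest to *Akr1b3* were *Ankle1* (0.17), *Slc25a10* (0.22), a mitochondrial dicarboxylate carrier, and *Sez6l2* (0.22). *Ankle1* was at 17.2 ± 1.25 and 32.0 ± 12.7 CPM, with the same wide spread in NaCl as *Akr1b3*. For *Nfat5* they were *Leng1*, *Ccdc82* and *Tfdp2* and for *Slc6a6* *Tfe3*, *Tubgcp4* and *Pea15a*, all at a distance of 0.115 or less.

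The libraries differed in depth, with 8520433 to 20123570 counts in control and 4088065 to 11610020 in NaCl. NaCl replicate 3, the smallest, had 1235 genes tested at 0 counts, against 79 in control replicate 3, the largest. Macrophage markers were present in all libraries, with a summed level of 15863 to 17658 CPM for 12 markers in control and 24735 to 32217 CPM in NaCl. The markers did not move together: 2 of 12 rose, *Lyz2*, which carries most of the sum with means of 9817 and 19148 CPM, and *Cd14* (adjusted p = 0.0424 and 0.007), and the list median was -0.06. With the block *Csf1r* was higher too (log2 fold change 0.72, adjusted p = 0.000298), and *Mertk* (-1.01, 4.28e-06), *Mrc1* (-0.98, 1.4e-05) and *Aif1* (-0.47, 0.0406) were lower. Without it their adjusted p were 0.0523, 0.12, 0.505 and 0.597, and DESeq2 called *Csf1r* and *Mertk* there. The call of *Lyz2* was lost without any sample other than NaCl replicate 1 (adjusted p from 0.0661 to 0.304), and that of *Cd14* without control replicate 2, control replicate 3 or NaCl replicate 3 (0.0923, 0.0737 and 0.0557). For other cell types, the summed level was 165 to 271 CPM in control and 149 to 342 in NaCl for 8 monocyte markers, 249 to 542 and 271 to 392 for 10 neutrophil markers, 789 to 994 and 748 to 1032 for 9 dendritic cell markers, and 630 to 727 and 484 to 629 for 7 osteoclast markers. The monocyte marker *Ifitm6*, which lay near *Slc5a3* in pattern, rose (adjusted p = 0.00997; 0.0905, 0.0737 and 0.0557 without control replicate 2, control replicate 3 and NaCl replicate 3), as did the osteoclast marker *Ctsk* (adjusted p = 0.00773; 0.0737 without control replicate 2 and 0.0737 without control replicate 3). The median of the osteoclast list was -0.04, and with the block *Acp5* was higher (log2 fold change 0.62, adjusted p = 0.013) and *Atp6v0d2* (-0.49, 0.00797) and *Itgb3* (-0.64, 0.0199) lower, the latter 2 with every NaCl sample below every control. The neutrophil markers *Mpo* (-0.73, 0.0245) and *Ngp* (-0.56, 0.0189) were lower with the block. None of these 5 passed without it (adjusted p from 0.223 to 0.451), and in DESeq2 with the block *Aif1*, *Acp5*, *Itgb3*, *Mpo* and *Ngp* did not pass (adjusted p from 0.0664 to 0.187). Lymphoid markers came to at most 0.544 CPM, and erythroid and stromal markers to at most 6.41 CPM. The part of these markers in the values of the 6 genes was not tested.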

How the data were processed

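RNA was measured in BMDMs of 3 mice, each as control and after NaCl. According to the methods and the submitters' processing notes, 75-base single-end reads from an unstranded library were trimmed with fastp 0.20.0, aligned with STAR 2.7.10b and counted per gene, so sense and antisense reads are not separated. The methods name the mm10 genome with GENCODE vM32, which belongs to a later build, so gene positions are given by chromosome, and lengths were taken from GENCODE M21 (GRCm38) for 15486 of the 15903 genes. The authors deposited raw counts of reads per gene, without normalization, and a normalized signal, the counts divided by size factors of DESeq2 1.40.2. That signal equals the raw count divided by 1 factor per library to within 1.22e-09, and the raw counts were used.

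Groups came from the labels. The test was edgeR 4.0.16 in R 4.3.3 on genes whose counts summed to 10 or more (glmQLFit and glmQLFTest, TMM, NaCl against control, no further term), with Benjamini-Hochberg adjustment over 15903 genes and a threshold of 0.05. DESeq2 1.42.0, the mouse as a replicate block, other scalings and filters, thinning and left-out samples were alternatives. CPM used TMM-scaled library sizes, and log2 CPM a prior count of 2. Within-mouse ratios used CPM, but the medians of such ratios over all genes tested used log2 CPM with its prior count. Whether replicates were cultured separately within a mouse is not stated. The same number marks the same mouse in both groups, and deviations from the group means correlated across 9924 genes, which are not independent replicates, by 0.757, 0.382 and 0.413 for mice 1, 2 and 3, against -0.691 to 0.335 for other pairs. Deviations from a group's own mean cancel out within the group, so these correlations depend on each other. The 0.335, for NaCl of mouse 2 with control of mouse 3, was close to the 0.382 of mouse 2.

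The 6 genes, the pathway and marker lists and the rules were chosen with earlier results of these data known. The text names the 6 genes, list genes past the threshold with or without the block or most abundant or defining in their list, and the 3 genes nearest in pattern to each of the 6. The comparison with genes flanking each of the 6 (*M6pr*, *Cyb5b* and *Nqo1* are named), the shared 75-base stretches and the Poisson intervals were added after the data were seen. Promoter sequences are from RefSeq (GRCm38.p6), which matched 4 of the 6 genes. *Slc6a6* and *Akr1b3* were not searched. The edgeR fit, with and without the block, was run on simulated counts with the same dispersion for every gene. This checked the code and not the calls made here. Python 3.11.15, pandas 2.3.3, numpy 2.4.6 and matplotlib 3.10.9 were used.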

Additional observations from a re-analysis of the deposited data

How the results depend on the processing

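None of the 6 genes changed direction in its fitted log2 fold change under any alternative. With 1 sample left out it ranged from 0.07 to 0.32 for *Nfat5*, 6.94 to 7.60 for *Slc6a12*, 3.88 to 4.25 for *Slc5a3*, 2.02 to 2.34 for *Mrps6*, 0.07 to 0.11 for *Slc6a6* and 0.44 to 1.05 for *Akr1b3*. With the longest transcript as the length, the control level was 8.81 FPKM for *Nfat5*, 0.160 for *Slc6a12*, 6.17 for *Mrps6*, 219 for *Slc6a6* and 20.1 for *Akr1b3*, in the same order; in NaCl that length changed the order of the means.

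Counts of calls depended on the setting. Over all genes 76 were higher and 28 lower. The replicate block, which pairs samples of a mouse, gave 732 and 684, DESeq2 gave 245 and 155 (452 and 354 when blocked), a filter at 1 count instead of 10 gave 362 and 300, and thinning to the smallest total gave 40 and 12. With 1 sample left out there were 8 to 123 higher (8 without control replicate 2, 9 without control replicate 3 or NaCl replicate 3, 22 without NaCl replicate 2, 46 without control replicate 1, 123 without NaCl replicate 1) and 0 to 46 lower (0 without NaCl replicate 2 or 3, 1 without control replicate 2 or 3, 46 without NaCl replicate 1). With both samples of a mouse left out there were 5 to 94 higher and 0 to 50 lower (5 and 0 without mouse 3, 6 and 0 without mouse 2, 94 and 50 without mouse 1).

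Over the pathway lists, 3 were higher and 0 lower. The block gave 10 and 3, DESeq2 gave 5 higher, DESeq2 with the block 6 and 1, that filter at 1 count gave 8 and 1, and thinning gave 1 higher. With 1 sample left out 1 to 2 were higher, and with a mouse left out 0 to 2 (0 without mouse 2 or 3). *Slc6a13* was also lost after thinning (adjusted p = 0.107), and DESeq2 with the block gave it no adjusted p. *Hspa1a* was lost after thinning (adjusted p = 0.0577), and *Hspa1b* without mouse 2 or 3 (0.135 and 0.261). The block changed no other call of a pathway, neighbourhood or marker gene than those named with it. The causes were not tested, beyond the fewer samples or counts that left-out samples and thinning leave. The depth of NaCl replicate 3, 4088065 counts, limits what can be seen for genes of a few counts, such as *Slc6a13*.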
